A study of Homo sapiens with 2 samples.

Results

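Cytochrome c oxidase is complex IV of the mitochondrial respiratory chain. It takes electrons from cytochrome c, reduces oxygen to water and pumps protons across the inner membrane, and it is the step at which most of the oxygen that a cell respires is consumed. Its catalytic core is encoded by mitochondrial DNA (MT-CO1, MT-CO2 and MT-CO3), whereas the surrounding structural subunits are encoded in the nucleus, and the enzyme is built from modules in which nuclear subunits join each core protein in turn. The genes described here are 10 nuclear structural subunits, COX4I1, COX5A, COX5B, COX6A1, COX6B1, COX6C, COX7A2, COX7B, COX7C and COX8A. They were taken by gene name from the 25277 rows of the deposited gene tables. All 10 were found once in each table, and all 10 passed the filter on low values, which kept genes that reached an FPKM of 1 in either sample. FPKM scales the fragments of a gene to the length of its transcript and to the number of mapped fragments in the library, so that levels can be compared between genes of different length. The mitochondrially encoded subunits were not analysed here.

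RNA was sequenced from HEK293 cells, a human embryonic kidney line, with 1 wild-type (WT) sample and 1 PERK-KO sample. PERK is an ER-resident kinase that senses unfolded proteins and is encoded by EIF2AK3. Both samples had been cultured for 12 h in OXPHOS medium, which lacks glucose and contains galactose and pyruvate, so that the cells depend on oxidative phosphorylation. The PERK-KO cells were made with CRISPR/Cas9 guides against PERK and grown from single cells, and which guide and how many clones stand behind the sequenced sample is not given in the sources used here. The comparison asks which transcripts were lower or higher without PERK under these conditions. With 1 sample per genotype no difference was tested. The intervals below are 95% intervals that carry the error within a single library, from counting and from assigning fragments to isoforms, and not the variation between cultures, and a difference between clones, cultures or libraries cannot be told apart from the genotype.

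EIF2AK3 mRNA was present in both samples, at 5.61 FPKM (5.11 to 6.12) in WT cells and 3.89 FPKM (3.44 to 4.34) in PERK-KO cells, and this level says nothing of the protein. Of 5 genes used to check the HEK293 label, VIM and NEFL were expressed in both samples and PAX2 was below 1 FPKM in both. IRS4, an adaptor of insulin receptor signalling that marks HEK293 cells, was at 0.121 FPKM in WT cells and 27.1 FPKM in PERK-KO cells. NEFM, a neurofilament gene, was at 0.662 and 5.21 FPKM. Of 6 markers of other cells, ALB, HBB and UCP1 were listed at 0 in both samples, MYH7 and PTPRC did not exceed 0.180 FPKM in either, and ACTN2 was at 1.39 and 2.12 FPKM. The part of these line differences in the values below was not tested.

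All 10 subunit mRNAs had a lower level in the PERK-KO sample, and in all 10 the interval of the PERK-KO value lay below that of the WT value. Among the 14594 genes that passed the filter, 46.4% were lower by any amount and 18.7% were lower with intervals apart. The median log2 difference of the 10 genes was -0.59, compared with 0.04 over all genes, and their summed level was 6537 FPKM in WT cells and 4490 FPKM in PERK-KO cells, which is 68.7% of the WT sum. More than 1.5-fold lower were 5 of the 10 (COX6C, COX6B1, COX5B, COX7B and COX7C), against 7.54% of all genes. With the difference of genes of the same transcript length subtracted, as described below, 1 of 10 (COX7B) was past this limit, against 5.22% of genes. The transcript length used for COX7B is uncertain, as also described below. Without the subtraction, 24.5% of other genes with transcripts under 1200 bases passed this limit. COX7C, at 1.51-fold, was just inside that limit, and COX4I1, at 1.499-fold, and COX7A2, at 1.48-fold, were just outside it.

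COX4I1 and COX5A join MT-CO1 at the start of assembly. COX4I1, on chromosome 16 from 85833173 to 85840607 (GRCh37, plus strand), encodes the large subunit at which ATP is known to act on the enzyme. It had 395 FPKM (384 to 406) in WT cells and 263 FPKM (254 to 273) in PERK-KO cells, a log2 difference of -0.58 (-0.65 to -0.52). COX5A, on chromosome 15 from 75212617 to 75230495 (minus strand), encodes a subunit on the matrix side. It had 352 FPKM (341 to 363) in WT cells and 316 FPKM (305 to 327) in PERK-KO cells, a log2 difference of -0.16 (-0.22 to -0.09). COX5A kept 89.7% of its WT level, the highest share of the 10 genes, whereas its module partner kept 66.7%.

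The subunits that join with MT-CO2 held both ends of the FPKM range. COX7C, on chromosome 5 from 85913784 to 85916583 (plus strand), was the most abundant of the 10 mRNAs, with 1685 FPKM (1644 to 1726) in WT cells and 1118 FPKM (1083 to 1154) in PERK-KO cells. COX8A, on chromosome 11 from 63742079 to 63744015 (plus strand), had 1057 FPKM (1031 to 1084) and 859 FPKM (833 to 884). Both encode small subunits that cross the inner membrane, and COX8A, at a log2 difference of -0.30 (-0.36 to -0.25), was closer to its WT level than COX7C at -0.59 (-0.65 to -0.54). COX5B, on chromosome 2 from 98262521 to 98264657 (plus strand), encodes the zinc-binding subunit of the matrix side, and it had 588 FPKM (568 to 608) in WT cells and 343 FPKM (327 to 359) in PERK-KO cells. COX7B, on the X chromosome from 77154961 to 77160881 (plus strand), had 616 FPKM (594 to 638) and 361 FPKM (343 to 379). COX6C, on chromosome 8 from 100890223 to 100906242 (minus strand), had 210 FPKM (202 to 217) and 115 FPKM (109 to 121). COX5B and COX7B were thus alike in level and in difference, at -0.78 (-0.86 to -0.70) and -0.77 (-0.86 to -0.68) on the log2 scale. COX6C had the lowest FPKM of the 10 in both samples, and this place depends on the transcript length used, as described below. It also had the largest difference, with a log2 difference of -0.87 (-0.96 to -0.78) and 54.7% of its WT level.

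The subunits that join with MT-CO3 lay between these. COX6A1, on chromosome 12 from 120875893 to 120878545 (plus strand), is the form of subunit 6A found outside heart and skeletal muscle. It had 931 FPKM (909 to 954) in WT cells and 680 FPKM (660 to 701) in PERK-KO cells, a log2 difference of -0.45 (-0.51 to -0.40). COX6B1, on chromosome 19 from 36139125 to 36149686 (plus strand), encodes the subunit that faces the intermembrane space, where cytochrome c docks. It had 429 FPKM (415 to 444) and 250 FPKM (238 to 262), and its log2 difference of -0.78 (-0.86 to -0.70) was the second largest of the 10. COX7A2, on chromosome 6 from 75947391 to 75953644 (minus strand), had 273 FPKM (257 to 288) and 185 FPKM (173 to 197), a log2 difference of -0.56 (-0.68 to -0.44). The median difference was -0.37 in the 2 genes of the MT-CO1 module, -0.77 in the 5 of the MT-CO2 module and -0.56 in the 3 of the MT-CO3 module, and the modules overlapped in range.

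**Figure D1:**
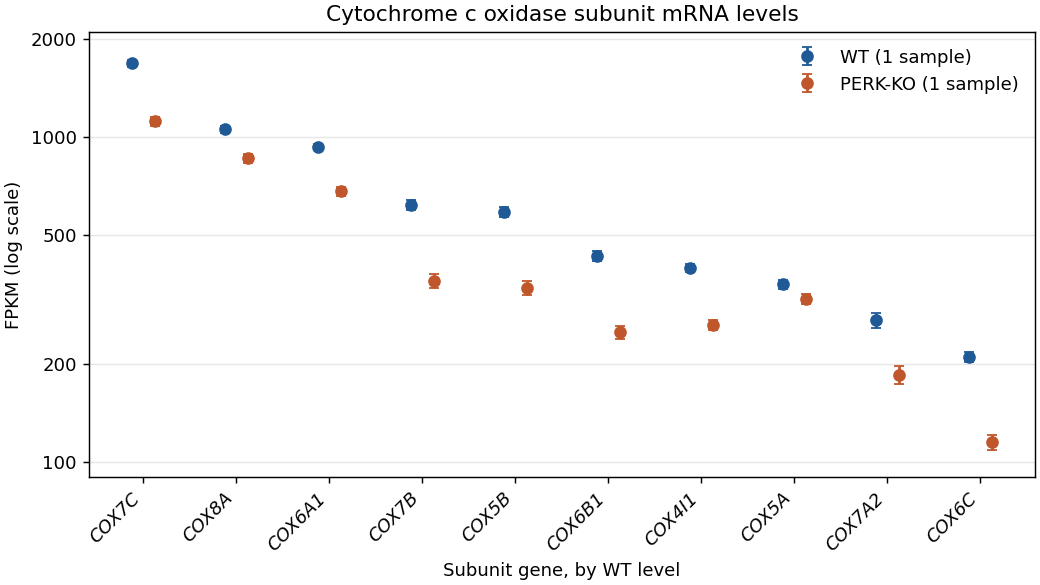
FPKM on a log axis for each of the 10 subunit genes in the WT sample (blue) and the PERK-KO sample (orange), ordered by WT level. Points are the values of 1 sample each and bars are the deposited confidence limits, and in every gene the orange bar lies wholly below the blue one.

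Within each sample the FPKM values of subunits that stand in equal number in the enzyme differed widely. From the highest level to the lowest they differed by 8.04-fold in WT cells and 9.75-fold in PERK-KO cells. The order of levels was nearly the same in both. COX7C, COX8A, COX6A1, COX7B and COX5B led in this order in each sample, and COX7A2 and COX6C came last. COX6B1 moved from rank 6 to 8 and COX5A from rank 8 to 6, with COX4I1 at rank 7 in both, so that 8 of 10 ranks were equal. In WT cells the neighbours COX7B and COX5B could not be separated by their intervals, and in PERK-KO cells neither could COX7B and COX5B nor COX4I1 and COX6B1. FPKM also depends on the transcript length that the authors' annotation used, which these intervals do not carry. The WT interval widths of COX6C and COX5B corresponded to 3042 and 3593 fragments, at 210 and 588 FPKM. Their canonical transcripts have 744 and 690 bases. The part of transcript length in the spread and order of levels was not tested.

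The 10 genes were ordered by their difference between the samples, and each was compared with its neighbours in this order. COX6C, COX6B1, COX5B and COX7B had less than 60% of their WT level left, and no neighbours among them differed beyond their intervals. COX7B and COX7C differed by 0.18 (0.08 to 0.28) on the log2 scale. Then came COX7C, COX4I1 and COX7A2, at 66.4 to 67.8% of WT, and COX6A1 at 73.1%, again without a separation between neighbours. The interval of COX6A1, -0.51 to -0.40, nevertheless lay apart from those of COX7C, -0.65 to -0.54, and COX4I1, -0.65 to -0.52. COX8A, at 81.2% of WT, differed from COX6A1 by 0.15 (0.07 to 0.23), and COX5A differed from COX8A by 0.14 (0.06 to 0.23). The subunit mRNAs were thus all lower, but by amounts that were unequal beyond these intervals.

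**Figure D2:**
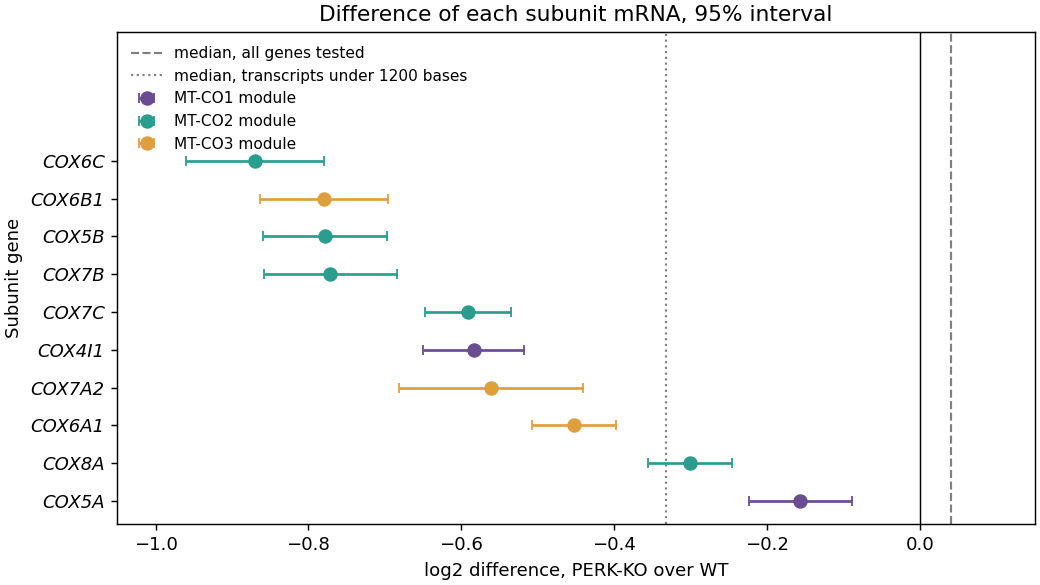
Log2 difference of PERK-KO over WT (x axis) for each subunit gene (y axis), coloured by the mitochondrially encoded partner with which it is assembled. Bars are 95% intervals from 1 sample per genotype, the dashed line is the median of all genes tested (0.04) and the dotted line that of transcripts under 1200 bases (-0.33), and 8 of the 10 genes lie wholly left of the dotted line.

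Short transcripts as a class were lower in the PERK-KO library, and the subunit transcripts are short. The median length of their canonical GENCODE transcripts was 659.5 bases, compared with 3187.5 bases over the 13506 genes with a length, and 8 of 10 were under 800 bases. They carry 2 to 5 exons. The median log2 difference of other genes was -0.35 for transcripts under 600 bases (337 genes), -0.42 from 600 to under 800 bases (324 genes), -0.31 from 800 to under 1200 bases (829 genes) and 0.23 from 4000 bases on (5048 genes). The FPKM worth of 1 fragment in the PERK-KO sample over the WT sample was 1.14 in every length class. The GC content of the subunit transcripts ranged from 40.5 to 57.9%. Of the 1490 other genes with transcripts under 1200 bases, 79.1% were lower by any amount and 48.1% were lower with intervals apart. Of the 1201 other genes with at least 100 FPKM in either sample, 60.6% were lower with intervals apart and 19.6% were more than 1.5-fold lower. The 410 other genes that were both short and abundant in this sense had a median log2 difference of -0.46, so the median of the subunit genes, -0.59, lay below that of genes of similar length and level by less than it lay below that of all genes. How far the length dependence enters into the values of the subunit genes was not tested.

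After subtraction of the running median over the 201 genes nearest in transcript length, 8 of the 10 genes were still below 0, with a median of -0.18. COX6C at -0.45, COX6B1 at -0.38 and COX5B at -0.35 kept the largest differences from genes of their length, beside COX7B at -0.74. COX6A1 was close to genes of its length, at -0.09. COX8A, at 0.08, and COX5A, at 0.11, were above them. The canonical transcript of COX7B has 2444 bases, but the width of its deposited interval corresponds to 5.12 fragments per FPKM in WT cells, fewer than the 6.11 of COX5B with a transcript of 690 bases. The COX7B transcript that the authors' annotation used may therefore be shorter than the canonical one. COX6C, with a canonical transcript of 744 bases, had 14.5 fragments per FPKM in WT cells, more than the 11.4 of COX5A with 1173 bases. Against genes with a similar number of fragments per FPKM, COX7B was at -0.36 and COX6C, then the furthest below, at -0.63. The median of the 10 genes was -0.20.

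The widths of the deposited intervals corresponded to 970 to 6780 fragments per subunit gene and sample, and the half-widths were 2.43 to 6.42% of the value. For 9 of the genes, 1 fragment was worth 1.12 to 1.15 times as much FPKM in the PERK-KO sample as in the WT sample, near the median of 1.14 over 11712 genes with a single transcription start. The ratio was 0.896 for COX7A2, so the fragment numbers of this gene are less certain. Cufflinks limits also hold the uncertainty of assigning fragments to isoforms, and its part in the COX7A2 interval was not tested. GENCODE lists 52 pseudogenes named after these 10 genes, 17 of them after COX6C and none after COX8A, and none of the 52 is in the deposited tables, so fragments shared with such copies could not be told apart here.

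The GA-binding protein (GABP) is an ETS-family factor that binds sites with a GGAA core and is known to act at promoters of respiratory chain genes, COX4I1 among them. Promoters from 250 bases before to 50 bases after the start, from RefSeq on GRCh38.p14, were found for 9 of the genes, with a second start for COX7A2, and not for COX6C. They were searched on both strands. The motif CCGGAAG was in 5 of 9 genes (COX4I1, COX5B, COX6A1, COX6B1 and COX8A), compared with 16.3% of the 14581 promoters of genes that passed the filter and 10.3% of all 35116 promoters. Its inner part GGAAG, which every CCGGAAG also holds, was in 6 of 9 genes, in 75.3% of the promoters of genes that passed the filter and in 71.9% of all promoters. The 5 genes with CCGGAAG had a median log2 difference of -0.58 (range -0.78 to -0.30) and the 4 without it had -0.58 (range -0.77 to -0.16). Each of the groups held a gene with a large difference and a gene with a small difference, and COX6C, without a promoter, was in neither. Only exact letters were searched, and COX7B and COX7A2, counted as without CCGGAAG, hold CCGGAAA. Whether the motif goes with the difference was not tested.

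The following windows, from 150 bases before to 30 bases after the start, show the contrast, with GGAAG on either strand (read as CTTCC on the other) in capitals. COX5B (chr2:97645912-97646091, plus strand) and COX6B1 (chr19:35648173-35648352, plus strand) hold the motif and had large differences, and COX8A (chr11:63974470-63974649, plus strand) holds it and had a small difference. COX7B (chrX:77899318-77899497, plus strand) had a large difference and COX5A (chr15:74938044-74938223, minus strand) the smallest, and neither holds CCGGAAG. The COX7B window does hold ccggaaa, which has the GGAA core and differs from the motif only in its last letter.

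COX5B: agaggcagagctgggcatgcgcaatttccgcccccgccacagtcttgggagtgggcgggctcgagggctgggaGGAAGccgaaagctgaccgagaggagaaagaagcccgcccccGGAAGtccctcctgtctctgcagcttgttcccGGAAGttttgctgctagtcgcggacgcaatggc

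COX6B1: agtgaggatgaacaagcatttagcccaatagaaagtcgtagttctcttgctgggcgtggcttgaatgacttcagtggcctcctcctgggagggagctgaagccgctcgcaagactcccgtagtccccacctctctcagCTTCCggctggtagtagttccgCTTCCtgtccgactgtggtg

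COX8A: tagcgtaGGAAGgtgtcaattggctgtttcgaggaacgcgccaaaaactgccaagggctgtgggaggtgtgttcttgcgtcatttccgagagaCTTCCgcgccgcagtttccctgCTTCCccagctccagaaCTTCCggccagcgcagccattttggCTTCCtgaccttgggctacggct

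COX7B: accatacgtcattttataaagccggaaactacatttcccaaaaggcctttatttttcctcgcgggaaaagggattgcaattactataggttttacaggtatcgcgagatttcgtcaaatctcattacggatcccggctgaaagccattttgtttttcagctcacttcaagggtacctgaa

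COX5A: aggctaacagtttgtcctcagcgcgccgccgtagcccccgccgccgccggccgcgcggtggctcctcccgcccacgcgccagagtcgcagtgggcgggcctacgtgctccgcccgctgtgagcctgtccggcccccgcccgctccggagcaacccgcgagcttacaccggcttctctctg

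COX5B held CCGGAAG in 2 places, with its first base at -37 and at -5 from the start, and COX6B1 and COX8A held it in 1 place each on the other strand, at -12 and -18. The SP1 letters GGGCGG were in 6 of 9 genes, in 65.9% of the promoters of genes that passed the filter and in 44.95% of all promoters, so the share among the subunit genes was close to that of the genes that passed. COX5A held them in 4 places. GCATGCGC, the inner part of the NRF1 site, was in COX5B and COX6A1, against 4.60% of promoters of genes that passed and 3.05% of all. AAGGTCA, the site of oestrogen-related receptors, was in COX7A2 and COX8A, against 2.70% and 3.92%. AAGATGG, an element of YY1 sites, was in COX7C, against 6.82% and 5.84%, and TGACGTCA, the CREB site, was in none of the 9, against 2.71% and 1.85%. A match is only a match of letters in this window.

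None of the 10 regulators of respiratory chain genes that were looked up was lower with intervals apart. GABPA had 8.16 FPKM (7.52 to 8.80) in WT cells and 9.29 FPKM (8.56 to 10.03) in PERK-KO cells, and its partner GABPB1 had 9.28 FPKM (8.35 to 10.2) and 11.1 FPKM (10.03 to 12.2), with overlapping intervals for both. Their log2 differences were 0.19 (0.03 to 0.35) for GABPA and 0.26 (0.06 to 0.46) for GABPB1. Relative to genes of their transcript length these were -0.004 and 0.07. NRF1, a factor that binds many respiratory chain promoters, was at 8.06 FPKM in each sample. Higher with intervals apart were YY1, a zinc finger factor, at 36.8 and 51.5 FPKM, PPRC1, a coactivator of the PGC-1 family, at 18.3 and 26.9 FPKM, and PPARGC1B, another of that family, at 1.002 and 1.63 FPKM. Of 9 regulators that passed the filter, 3 were higher with intervals apart and 6 had overlapping intervals, and PPARGC1A was below the filter. Higher with intervals apart were 26.1% of all genes and 46.9% of genes with transcripts of at least 4000 bases, and the regulators' transcripts are long, at a median of 5226 bases. After subtraction of the running median over length, the log2 difference was 0.24 for YY1, from 0.48, 0.37 for PPRC1, from 0.56, and 0.36 for PPARGC1B, from 0.70, and the median of the 9 regulators was 0.07, from 0.19.

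Several subunits have a second gene whose product replaces the common form in certain tissues. COX4I2 (lung), COX6A2 and COX7A1 (heart and skeletal muscle), COX7B2 and COX8C (testis) were listed at 0 in both samples. COX6B2, the testis form of COX6B1, had 3.75 FPKM (3.03 to 4.46) in WT cells and 3.85 FPKM (3.07 to 4.62) in PERK-KO cells, and these intervals overlapped. Of the 6 tissue forms, COX6B2 was thus the one with a level above 0, at about the same value in both samples. NDUFA4, first assigned to complex I and now counted with complex IV, had 57.3 FPKM (54.8 to 59.7) and 41.4 FPKM (39.1 to 43.6), a log2 difference of -0.47 (-0.57 to -0.37). COX7A2L, which links complexes III and IV into supercomplexes, had 122 FPKM (117 to 127) and 96.1 FPKM (91.2 to 101). CYCS, the electron donor cytochrome c, had 39.1 FPKM (37.9 to 40.3) and 35.3 FPKM (34.1 to 36.5), a log2 difference of -0.15. Relative to genes of their transcript length, the log2 differences were -0.37 for NDUFA4, -0.30 for COX7A2L and -0.30 for CYCS, whose transcript has 5432 bases. NDUFA4L2, the low-abundance relative of NDUFA4, had 1.91 FPKM (1.27 to 2.54) and 0.746 FPKM (0.316 to 1.17).

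Of 26 assembly factors listed, all passing the filter, 14 were lower with intervals apart, 3 were higher and 9 had overlapping intervals, with a median log2 difference of -0.27. Of all genes, as given above, 18.7% were lower and 26.1% higher with intervals apart. The median transcript length of the assembly factors was 1557.5 bases, and their median relative to genes of the same length was -0.06. The lowest were PET100, a small protein needed for complex IV biogenesis, at -1.296 (-1.50 to -1.09), from 323 to 131 FPKM, and COX14, which acts with newly made MT-CO1, at -0.85 (-1.03 to -0.68), from 91.2 to 50.5 FPKM. The highest were SELRC1, now COA7, at 0.52 (0.36 to 0.67) and COX10, which acts in making the haem of the enzyme, at 0.47 (0.24 to 0.71). The spread of the assembly factors was not tested against that of the structural subunits.

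Beside the other respiratory complexes, the subunit genes of complex IV had a median near that of complex I. It was -0.59 over 10 genes of complex IV, -0.55 over 37 genes of complex I, -0.21 over 4 of complex II, -0.45 over 9 of complex III and -0.39 over 15 of ATP synthase. Lower with intervals apart were 10 of 10, 32 of 37, 3 of 4, 6 of 9 and 13 of 15. The share was 18.7% of all genes. It was 48.1% of other genes with transcripts under 1200 bases and 60.6% of other genes with at least 100 FPKM in either sample, the subunits of complex IV being left out of both. The 84 cytosolic ribosomal protein genes, whose transcripts are also short at a median of 785 bases, had a median of -0.42, and 75 of them were lower with intervals apart. With the running median over length subtracted, the medians were -0.18 for complex IV, -0.18 for complex I, 0.02 for complex II, -0.09 for complex III, -0.08 for ATP synthase and -0.13 for ribosomal proteins. Differences between these lists were not tested.

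**Figure D3:**
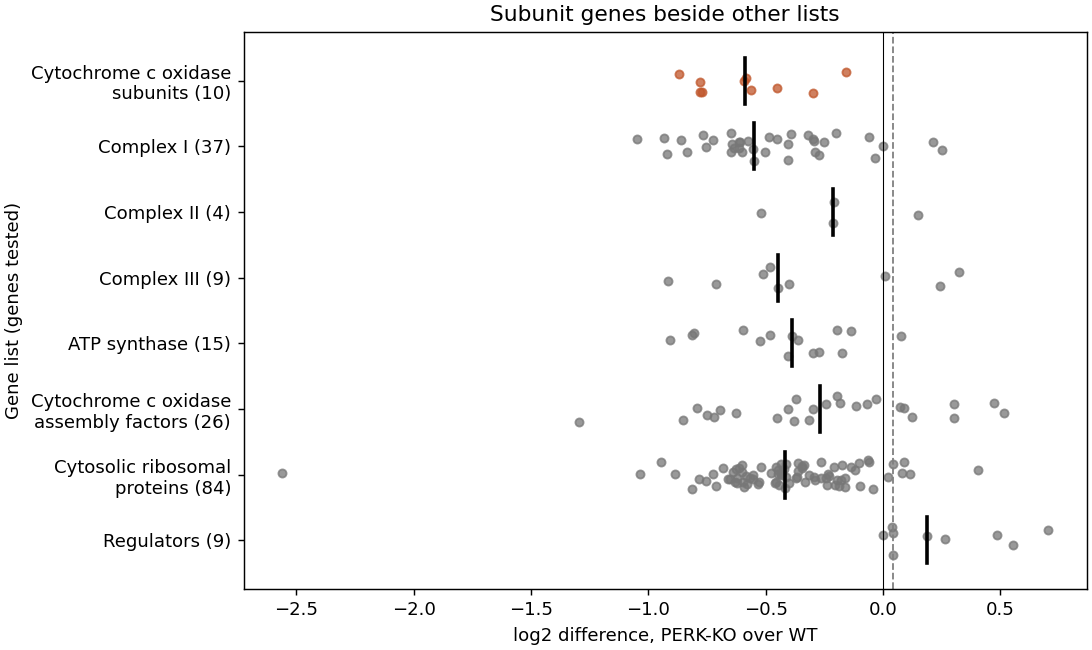
Log2 difference of PERK-KO over WT (x axis) for the genes of each list (y axis, number of genes tested in brackets), with each point a gene, a black bar at each list's median and a dashed line at the median of all genes tested. All 10 cytochrome c oxidase subunits lie left of 0, from -0.87 to -0.16, and the regulators lie at or right of 0.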

How the data were processed

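Polyadenylated RNA of 1 WT and 1 PERK-KO HEK293 sample was sequenced. Per the submitters' processing notes and the study's methods, the authors mapped reads to GRCh37/hg19 with TopHat2 2.0.13 and computed FPKM with Cufflinks 2.2.1 and Cuffdiff. The authors deposited FPKM per gene with lower and upper limits, and the read totals were not given in the sources used here. The library kit was not stated to keep strand, so fragments of overlapping antisense genes could not be told apart. The locus of 1 other gene with deposited values overlapped that of a subunit gene. Its strand and its part in the values were not tested.

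FPKM values were used as deposited, without a pseudocount, for the 14594 genes that reached 1 in either sample. Each deposited half-width was read as 2 standard deviations. From it came the 95% interval of the log2 ratio and the number of fragments, as the squared ratio of value to standard deviation. These intervals cover counting and isoform assignment within 1 library only, and the fragment numbers read all of the width as counting. The deposited loci count from 0, and starts are given from 1. Lengths came from GENCODE 44 canonical transcripts on GRCh37, matched by symbol and position for 12454 genes and by an older symbol for 1052. With 1 sample per genotype no test was run. A limit of 1.5-fold was used for counts. The named genes were the 10 subunits, their tissue isoforms, related genes, regulators, and the 2 lowest and 2 highest assembly factors, and the members and lists were chosen with earlier results of these data known. The calculations were run on simulated counts with known fold changes, drawn with counting error only. This checks the arithmetic, and not isoform assignment or the variation between cultures. Python 3.11.15, numpy 2.4.6, pandas 2.3.3 and matplotlib 3.10.9 were used. The alternatives were other filters, pseudocounts, scalings, fold limits, wider limits, summed rows and length correction.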

Additional observations from a re-analysis of the deposited data

How the results depend on the processing

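The values rest on 1 library per genotype. No paired analysis was possible because each genotype has 1 sample, and for the same reason no sample could be left out. The 10 differences kept their sign, and moved by less than their intervals, under other filters (FPKM above 0 in both samples, or at least 10 or 100 in either), pseudocounts of 0.1 and 1, median and 75th percentile scaling and summed rows, with 7 genes past 1.5-fold under the 2 scalings, against 8.76 and 9.04% of all genes. With the running median over transcript length subtracted, the median difference was -0.18 in place of -0.59, and COX5A and COX8A turned to 0.110 and 0.0766. Under this setting 1 gene, COX7B, was past 1.5-fold, against 5.22%, and 7 of 10 had intervals apart, against 19.9%. With fragments per FPKM as the length measure, added after the values were seen, the median was -0.20, and COX5A and COX8A turned to 0.177 and 0.104. The 1 gene past 1.5-fold was then COX6C and not COX7B, against 4.92%, and 6 had intervals apart, against 19.3%. Past 1.3-fold were 8 genes, against 15.3% of all genes, and past 2-fold 0, against 2.08%. With limits widened 2 times, 9 of 10 had intervals apart, against 8.09%. The shares with intervals apart under these settings were not computed for genes of similar length or level. In the main setting the share was 48.1% of other genes with transcripts under 1200 bases. It was 60.6% of other genes with at least 100 FPKM in either sample.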
